A study of Mus musculus with 27 samples.

Results

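RNA of 10 genes of transforming growth factor beta (TGF-beta) signaling, chosen by symbol for their part in vessels, was followed here in whole mouse retinas. Signaling itself was not measured. These are 10 of the 40129 genes in the table. They are the ligands Tgfb1, Tgfb2 and Tgfb3, the receptors Tgfbr1, Tgfbr2, Eng and Acvrl1, the inhibitor Smad7, and the target genes Id1 and Id3. All 10 were above the minimum mean of 1 normalized read and were among the 27137 genes tested. Retinas came from wild-type C57BL/6 pups (C57BL/6J in the methods), with 1 library per mouse made from 1 retina or from both retinas of the animal. In oxygen-induced retinopathy (OIR), newborn pups are first kept in room air and then in high oxygen, which removes vessels from the central retina. They are then returned to room air, where the retina becomes hypoxic and grows new vessels. Days 14 and 17 both lie after this return. The groups used were 6 mice kept in room air throughout and taken at postnatal day 14 (nOIR p14), 6 OIR mice at day 14 (OIR p14), 6 room-air mice at day 17 (nOIR p17) and 8 OIR mice at day 17 (OIR p17). Mouse S4 of nOIR p14 was left out, following the methods of the study. That left 26 of 27 mice for the comparisons. Each group held fewer litters than mice, so some mice of a group were littermates. The model comes from healthy young pups without diabetes, and whole retinas were measured, so that vessels made up only part of each sample.

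TGF-beta ligands are secreted in a latent form, are released at the cell surface or in the matrix, and bind a type II receptor (Tgfbr2) that activates a type I receptor. In most cells this is Tgfbr1 (ALK5), which acts through Smad2 and Smad3. In endothelial cells the type I receptor Acvrl1 (ALK1), with its co-receptor endoglin (Eng), mainly binds the circulating ligands Bmp9 (Gdf2) and Bmp10 and acts through Smad1, Smad5 and Smad9, which switch on Id1 and Id3. In human families, inherited loss of ENG or ACVRL1 causes hereditary haemorrhagic telangiectasia, a disease of malformed vessels.

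Normalized reads are the counts of a gene divided by a size factor for each mouse. Whole reads recovered from them came to between 17029536 and 33593428 per mouse, with a median of 30024568. Endothelial markers were above 0 in every mouse. The lens markers Cryaa, Cryba1, Crybb2 and Crygs varied widely, with a sum between 2.66 and 31530 normalized reads over the 26 mice, and mouse S4 ranked 5 of 27 for this sum. A gene is called higher or lower at an adjusted p under 0.05 (limma on log2 of normalized reads plus 1, adjusted over all genes tested by the Benjamini-Hochberg method). A log2 fold change is OIR minus nOIR on that scale, given ± SE.

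The promoters of the members that were higher in OIR p17 mice are shown where the sequence table held an entry, because these genes changed in the same direction. RefSeq promoters (build GRCm38.p6) matched 6 of the 10 members. The 250 bases before the start of 4 of them are printed 5′ to 3′ on the strand of the gene. Capitals mark CAGAC (a longer form of the CAGA letters that Smad3 and Smad4 bind), read as CAGAC or GTCTG, and the letters ACGTG (the core that hypoxia-inducible factors bind), read as ACGTG or CACGT. The palindrome GGCGCC, which Smad1 and Smad5 bind in Id genes, was also searched. The windows are chr7:25686752-25687001 on the plus strand for Tgfb1, chr1:186705990-186706239 on the minus strand for Tgfb2, chr9:116175364-116175613 on the minus strand for Tgfbr2 and chr2:32646345-32646594 on the plus strand for Eng.
Tgfb1: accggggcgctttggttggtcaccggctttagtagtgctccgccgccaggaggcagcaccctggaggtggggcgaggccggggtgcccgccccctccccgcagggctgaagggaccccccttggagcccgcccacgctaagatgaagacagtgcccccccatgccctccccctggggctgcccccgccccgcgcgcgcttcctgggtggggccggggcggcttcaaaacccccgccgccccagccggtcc
Tgfb2: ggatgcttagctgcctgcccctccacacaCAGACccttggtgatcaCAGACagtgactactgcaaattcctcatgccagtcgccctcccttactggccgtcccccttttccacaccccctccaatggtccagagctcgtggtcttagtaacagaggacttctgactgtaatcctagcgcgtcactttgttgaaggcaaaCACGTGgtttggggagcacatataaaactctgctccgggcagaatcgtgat
Tgfbr2: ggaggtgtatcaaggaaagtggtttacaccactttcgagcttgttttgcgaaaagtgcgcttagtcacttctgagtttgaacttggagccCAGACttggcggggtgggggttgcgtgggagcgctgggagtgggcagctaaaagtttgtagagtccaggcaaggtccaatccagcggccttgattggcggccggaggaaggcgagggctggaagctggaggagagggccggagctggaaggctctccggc
Eng: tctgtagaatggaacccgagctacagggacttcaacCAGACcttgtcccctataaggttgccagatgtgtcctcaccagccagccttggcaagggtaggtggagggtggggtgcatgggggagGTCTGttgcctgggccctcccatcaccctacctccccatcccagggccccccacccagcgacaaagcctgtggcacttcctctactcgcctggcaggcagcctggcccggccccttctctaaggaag

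CAGAC or its reverse stood 2 times in the Tgfb2 window, 2 times in that of Eng and 1 time in that of Tgfbr2, and it was not in the Tgfb1 window. The Tgfb2 window also held CACGTG, in which the forward and reverse ACGTG overlap, with its first letter 51 bases before the start. GGCGCC was in none of these 4 windows. Over 32851 promoter windows of the same length, 42.2% held CAGAC, 16.6% held ACGTG and 9.59% held GGCGCC, on either strand. Tgfb1 was the most GC-rich of the 4 windows, with 75.2% G and C, against 53.6% for Tgfb2, 58.4% for Tgfbr2 and 62.4% for Eng.

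At p17 the receptors and co-receptors Eng, Acvrl1 and Tgfbr2, the ligands Tgfb1 and Tgfb2, and the target gene Id1 were higher in OIR mice, so that 6 of the 10 genes were called higher, where 7.39% of all genes tested were. None was called lower in limma, edgeR or DESeq2, and none was lower at an unadjusted p under 0.05, where 5.12% of all genes were called lower. At p14 only Tgfb2 was called higher, where 3.18% of all genes were, and Tgfbr2 and Id3 were called lower, where 2.91% of all genes were. When every mouse of a group had to lie apart, 5 of the 10 were above all controls at p17, against 3.9% of all genes, and none was below, against 1.98%. At p14, 1 was above, against 1.91%, and 1 below, against 1.86%. The median log2 fold change of the 10 genes was 0.07 at p14 and 0.66 at p17, and that of all genes tested was 0.02 and -0.02. No member passed the limit that the study also set for a DEG (a log2 fold change above 2), which 1.9% of all genes did at p17. This depended on the setting for Tgfb1 and Eng, which both lay at 1.95 at p17. With the same total in each mouse they came to 2.02 and 2.01, and without OIR p17 mouse S4 to 2.02 and 2.05. Tgfb1 also passed 2 without nOIR p17 mouse S2, S4 or S5, with up to 2.04, and Eng without nOIR p17 mouse S5, with 2.04. In these whole retinas, fewer or more cells of a type and less or more RNA per cell cannot be told apart.

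**Figure D1:**
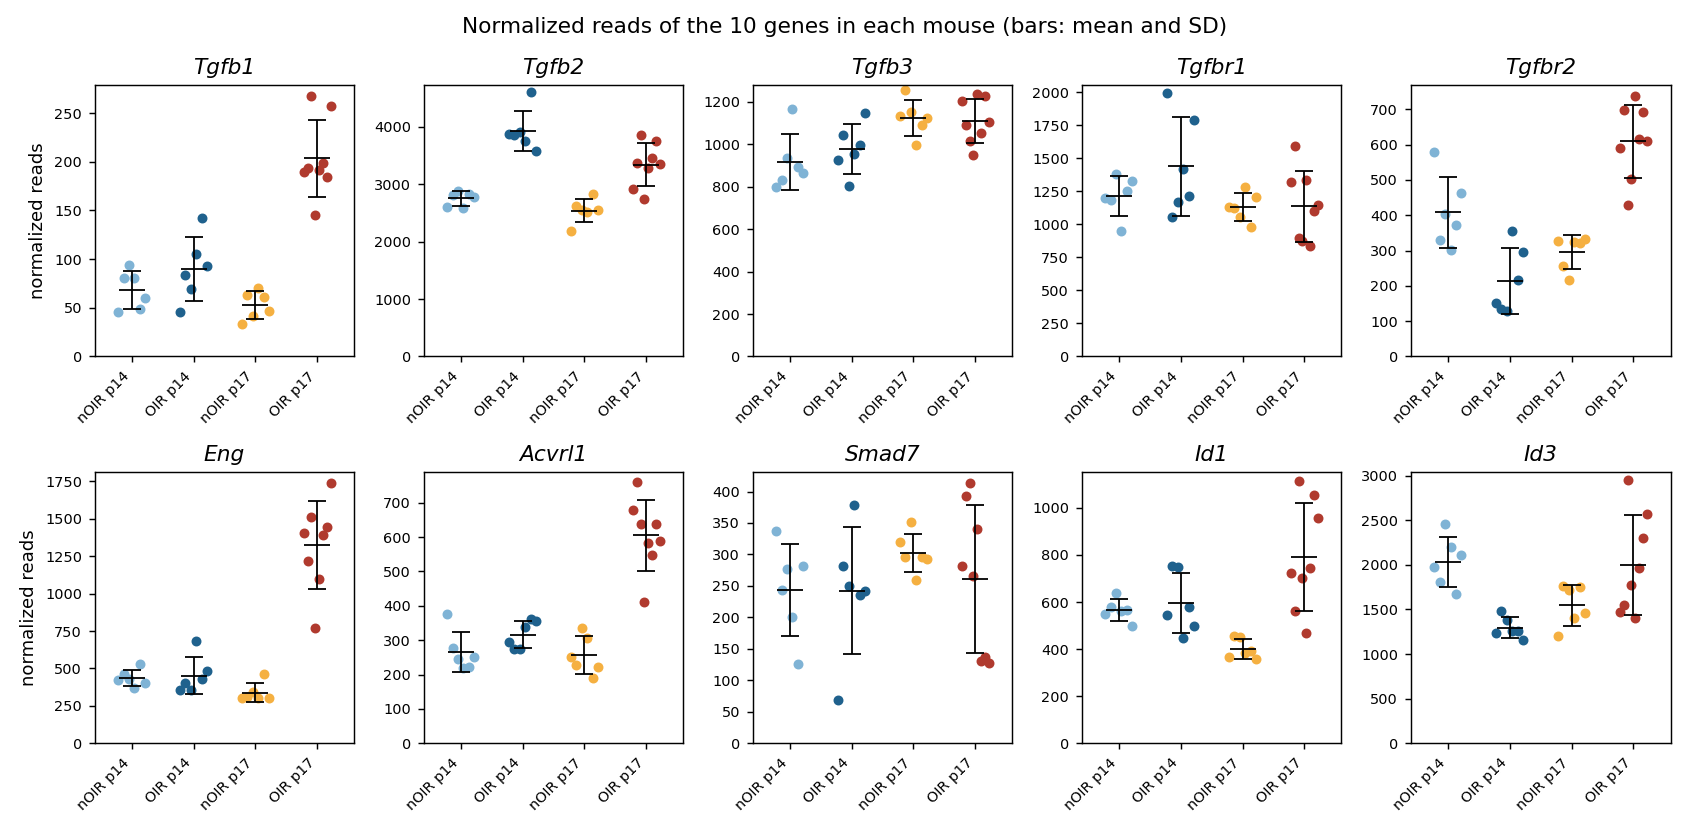
Normalized reads (y axis) of the 10 genes in each of the 26 mice, by group (x axis). Points are mice, and bars give the mean and SD of the group. Tgfb1, Tgfbr2, Eng, Acvrl1 and Id1 have all 8 OIR p17 mice above all 6 nOIR p17 mice, and Smad7 spreads from 127.9 to 414.2 within OIR p17.

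**Figure D2:**
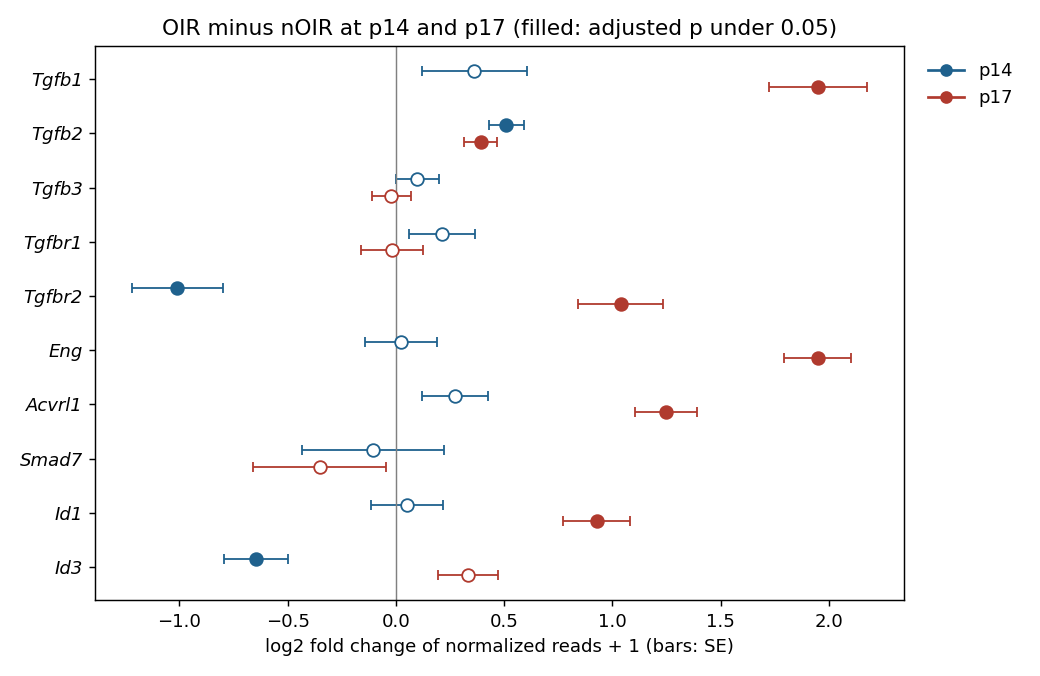
Log2 fold change of OIR against nOIR mice (x axis, bars give the SE) for each gene at p14 (blue) and p17 (red). Filled points passed an adjusted p under 0.05. Tgfbr2 lies at -1.01 at p14 and at 1.04 at p17.

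Among the ligands, Tgfb1 encodes the isoform best known from wound healing and immune regulation. In nOIR p17 mice it had between 33.3 and 70.6 normalized reads, with a median of 54.0. In OIR p17 mice it had between 144.9 and 267.2, with a median of 192.6. All 8 OIR mice lay above all 6 controls, and the log2 fold change was 1.95 ± 0.23 (adjusted p = 1.73e-07). At p14, by contrast, the OIR mice ranged from 45.5 to 142.4, with a median of 88.4, and overlapped with the controls, which ranged from 45.3 to 94.1 with a median of 70.1. The log2 fold change at p14 was 0.36 ± 0.24 (adjusted p = 0.501, 95% interval -0.13 to 0.86). The effect at p17 was larger than that at p14 by 1.59 ± 0.33 on the log2 scale (adjusted p = 0.00671).

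Tgfb2 encodes the ligand that is abundant in the eye and in neural tissue. It was the ligand that was already higher at p14. The OIR p14 mice had between 3583 and 4608 normalized reads, with a median of 3859, and all lay above the nOIR p14 mice, which had between 2585 and 2889 with a median of 2795. This was a log2 fold change of 0.51 ± 0.08 (adjusted p = 1.22e-04). At p17 the OIR mice had between 2742 and 3856, with a median of 3361, and the controls between 2188 and 2821, with a median of 2551. These groups overlapped slightly, and the log2 fold change was 0.39 ± 0.08 (adjusted p = 4.71e-04). The effects at the 2 ages differed by -0.12 ± 0.11 (adjusted p = 0.772, 95% interval -0.35 to 0.11).

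Tgfb3, whose product is needed for closure of the palate, did not pass the test at either age. Its 4 group medians lay between 877.4 and 1128 normalized reads, and OIR and control mice overlapped at each age. Its log2 fold change was 0.10 ± 0.10 at p14 (adjusted p = 0.701, 95% interval -0.10 to 0.30) and -0.02 ± 0.09 at p17 (adjusted p = 0.930, 95% interval -0.21 to 0.17).

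Of the receptors, Tgfbr1 also passed no test. Its medians were 1228 normalized reads in nOIR p14, 1314 in OIR p14, 1128 in nOIR p17 and 1121 in OIR p17. The OIR mice were more spread than the controls, from 1055 to 1998 at p14 and from 835.7 to 1594 at p17. Its log2 fold change was 0.21 ± 0.15 at p14 (adjusted p = 0.544, 95% interval -0.10 to 0.53) and -0.02 ± 0.14 at p17 (adjusted p = 0.963, 95% interval -0.31 to 0.27).

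Tgfbr2, the type II receptor of the TGF-beta ligands, was lower in OIR mice at p14 and higher at p17. At p14 the OIR mice had between 130.1 and 353.9 normalized reads, with a median of 183.5, and the controls between 302.2 and 578.9, with a median of 388.1. Only mouse S4 of the OIR p14 group lay within the range of the controls. The log2 fold change was -1.01 ± 0.21 (adjusted p = 0.00218). At p17 the OIR mice had between 429.6 and 738.0, with a median of 612.7, all above the controls, which had between 216.1 and 332.5 with a median of 322.0. Here the log2 fold change was 1.04 ± 0.20 (adjusted p = 2.89e-04), and the effects at the 2 ages differed by 2.05 ± 0.29 (adjusted p = 5.54e-05).

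Eng, the co-receptor endoglin of proliferating endothelial cells, did not pass the test at p14. The OIR p14 mice had between 353.9 and 682.1 normalized reads, with a median of 415.9, and the nOIR p14 mice between 368.7 and 530.2, with a median of 425.6. This gave a log2 fold change of 0.02 ± 0.17 (adjusted p = 0.975, 95% interval -0.32 to 0.36). At p17 it was 1.95 ± 0.16 (adjusted p = 1.56e-10), with OIR mice between 768.2 and 1742 (median 1400.5) and controls between 302.8 and 462.9 (median 306.3). The lowest OIR mouse was thus well above the highest control. The effects at the 2 ages differed by 1.93 ± 0.23 (adjusted p = 3.75e-06).

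Acvrl1, the type I receptor ALK1, followed the same order at smaller size. In OIR p17 mice it had between 409.9 and 761.8 normalized reads, with a median of 613.4, and in nOIR p17 mice between 189.3 and 335.1, with a median of 239.2. No mice overlapped, and the log2 fold change was 1.25 ± 0.14 (adjusted p = 1.59e-07). At p14 the OIR mice had between 273.3 and 361.1 (median 316.4) and overlapped with the controls, which had between 218.1 and 376.5 (median 248.0). The log2 fold change at p14 was 0.27 ± 0.15 (adjusted p = 0.395, 95% interval -0.04 to 0.59), and the difference between the ages was 0.98 ± 0.21 (adjusted p = 0.00948).

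Smad7, the inhibitory Smad that targets the receptors for degradation, passed no test. In OIR p17 it ranged from 127.9 to 414.2 normalized reads, with a median of 273.3, and mice S6, S7 and S8 had 131.3, 136.3 and 127.9. In nOIR p17 it ranged from 259.1 to 351.5, with a median of 295.9. In OIR p14 it ranged from 68.3 (mouse S1) to 377.9, with a median of 245.7, and in nOIR p14 from 126.2 (mouse S6) to 336.5, with a median of 260.1. For Smad7 the log2 fold change was -0.11 ± 0.33 at p14 (adjusted p = 0.933, 95% interval -0.78 to 0.57) and -0.35 ± 0.31 at p17 (adjusted p = 0.560, 95% interval -0.98 to 0.28). Changes within these intervals were not detectable here. Fzd8, a Wnt receptor, varied most like Smad7 over the 26 mice (r = 0.92, and 0.95 after each group's mean was subtracted).

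Id1 and Id3 encode inhibitors of DNA binding, which block basic helix-loop-helix factors. Id1 did not pass the test at p14, with a log2 fold change of 0.05 ± 0.17 (adjusted p = 0.939, 95% interval -0.29 to 0.39) and overlapping mice from 447.9 to 752.6 normalized reads in OIR and from 496.1 to 638.3 in nOIR. At p17 the OIR mice had between 468.1 and 1116, with a median of 734.1, and all lay above the controls, which had between 357.0 and 455.7 with a median of 387.7. For Id1 this was a log2 fold change of 0.93 ± 0.16 (adjusted p = 5.86e-05). The effects at the 2 ages differed by 0.88 ± 0.23 (adjusted p = 0.0414), but this call was lost in 21 of 36 alternatives, with adjusted p between 0.00675 and 0.136 over the alternatives. In 17 of them a single mouse was left out (nOIR p14 S1, S2, S3, S5 or S6, OIR p14 S1, S4, S5 or S6, nOIR p17 S1, S4, S5 or S6, or OIR p17 S3, S6, S7 or S8).

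Id3 was lower in all 6 OIR p14 mice than in any control. It ranged from 1160 to 1485 normalized reads in OIR p14, with a median of 1256, and from 1674 to 2454 in nOIR p14, with a median of 2042. For Id3 this was a log2 fold change of -0.65 ± 0.15 (adjusted p = 0.00577). At p17 the OIR mice ranged from 1401 to 2955, with a median of 1870, and overlapped with the controls (1199 to 1768, median 1588), with a log2 fold change of 0.33 ± 0.14 (adjusted p = 0.125, 95% interval 0.05 to 0.62). When each mouse was scaled to the same total, Id3 was called higher at p17 (0.40, adjusted p = 0.0428). The difference between the ages, 0.98 ± 0.20, passed the test (adjusted p = 0.00608).

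In all, the signed log2 fold change of OIR against nOIR was called higher at p17 than at p14 for 6 of the 10 genes, where 1.43% of all genes were, and lower for none in limma, edgeR or DESeq2 (also none at an unadjusted p under 0.05), where 0.147% of all genes were. For Tgfbr2 (-1.01 and 1.04) and Id3 (-0.65 and 0.33) the values lay on opposite sides of 0, and that of Id3 at p17 was not called. Between p14 and p17 in room air, no member was called by limma, edgeR or DESeq2, where 0.158% of all genes were called higher and 0.158% lower. At an unadjusted p under 0.05, 1 member was higher and 4 were lower in nOIR p17, where 3.4% of all genes were higher and 3.96% lower. Id1 was the member that did not overlap between these ages, with nOIR p17 below nOIR p14 (log2 fold change -0.49 ± 0.17, adjusted p = 0.308), as 0.674% of all genes did, while 0.814% lay above without overlap. Within OIR mice, 5 members were called higher at p17 than at p14, where 4.11% of all genes were. These were Tgfbr2 (1.60 ± 0.20, adjusted p = 2.63e-06), Eng (1.55 ± 0.16, adjusted p = 7.17e-08), Tgfb1 (1.23 ± 0.23, adjusted p = 6.58e-04), Acvrl1 (0.92 ± 0.14, adjusted p = 8.36e-05) and Id3 (0.58 ± 0.14, adjusted p = 0.00831). No member was called lower by limma or edgeR, where 1.81% of all genes were, although 2 were lower at an unadjusted p under 0.05 and DESeq2 called 1, which was Tgfb2. These comparisons share mice with those of OIR against nOIR.

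Levels between genes were compared per kilobase of exon (GENCODE exons of GRCm38), as mean ± SD of normalized reads per kilobase. In nOIR p14 (n = 6), Id3 was the most abundant with 1136 ± 157, followed by Id1 with 487 ± 39.9 and Tgfb2 with 475 ± 21.8, which did not differ beyond their spread. Tgfb3 had 270.5 ± 39.1, Tgfbr1 186 ± 23.2 and Eng 108 ± 13.7. Acvrl1 with 62.1 ± 13.8, Smad7 with 54.0 ± 16.2 and Tgfbr2 with 49.8 ± 12.3 lay within each other's spread, and Tgfb1 was the least abundant with 13.5 ± 3.91. In OIR p17 (n = 8), Tgfb1 still had the lowest mean with 40.3 ± 7.91, but this lay within the spread of Smad7 with 57.8 ± 26.1. Eng had 327 ± 72.7 there and was at the level of Tgfb3, which had 328 ± 30.8.

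Markers of several cell types moved with these genes. At p17, 10 of 12 endothelial markers and 8 of 8 mural cell markers were called higher in OIR mice. The summed endothelial markers ranged from 14355 to 18331 normalized reads in OIR p17 and from 9871 to 11445 in nOIR p17. The summed mural markers, from pericytes and smooth muscle, ranged from 10247 to 16051 in OIR p17 and from 3074 to 3877 in nOIR p17. Of the microglia and macrophage markers, 6 of 8 were called higher, and their sum ranged from 1789 to 2858 against 904.5 to 1182. At p14, 2 endothelial markers were called higher and 1 lower, and 2 mural markers were called higher and 3 lower, while 2 of the 8 microglia and macrophage markers were called higher. Of 6 Mueller glia and astrocyte markers, 1 was called higher and 3 lower at p14, and 2 higher and 3 lower at p17. Their sum ranged from 33401 to 50471 normalized reads in OIR p17 and from 41978 to 50023 in nOIR p17. Of 6 retinal neuron markers, 2 were called lower at each age, and their sum ranged from 491508 to 783869 in OIR p17 and from 570096 to 759966 in nOIR p17. At p14 the sums did not overlap, with 424312 to 513482 in OIR and 533354 to 697902 in nOIR. None of the 4 lens markers was called at either age, and their median change on the log2 scale came to 1.49 in the younger and 1.77 in the older OIR mice. The part of any of these cells in the members' changes was not tested.

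Expressed relative to the mean log2 level of the 12 endothelial markers, which differed by 1.22 between OIR p17 and nOIR p17 mice, the members separated, as a description without a test. The difference between OIR and nOIR at p17 became 0.73 for Tgfb1, with no overlap of mice, and 0.73 for Eng, with overlap. It became 0.03 for Acvrl1, -0.18 for Tgfbr2 and -0.29 for Id1, each with overlap. Tgfb2, which was called higher on its own scale, was at -0.82 relative to these markers. Tgfb3 was at -1.24, Tgfbr1 at -1.23, Smad7 at -1.57 and Id3 at -0.88, each without overlap. A gene that does not change on its own scale falls here by as much as the markers rose. The share of all genes without overlap on this scale is not given here. Relative to the 8 mural markers, which were 2.09 higher on average, Tgfb1 (-0.14) and Eng (-0.14) overlapped between the groups at p17. The other 8 members were lower than in nOIR without overlap, from Acvrl1 (-0.84), Tgfbr2 (-1.05) and Id1 (-1.16) to Tgfb2 (-1.70) and Smad7 (-2.44). Here too a gene unchanged on its own scale falls by the rise of the markers. The share of all genes without overlap is not given on this scale either, so the count does not single out the members. At p14, relative to the endothelial markers, Tgfbr2 was at -0.85 and Id3 at -0.49, both with overlap. Relative to the mural markers at p14, Tgfbr2 was at -0.82 without overlap and Id3 at -0.46 with overlap. That mean joins markers that moved in opposite directions at p14. Among the 8 mural markers, Rgs5 (-1.10), Abcc9 (-1.47) and Kcnj8 (-1.72), which mark pericytes, were called lower without overlap. Their log2 fold changes lay further below 0 than that of Tgfbr2 (-1.01). Acta2 (2.00), a contractile actin of smooth muscle, and Des (1.04), the intermediate filament desmin, were called higher. The remaining mural markers, Pdgfrb (-0.32), Notch3 (-0.08) and Cspg4 (0.18), were not called and overlapped between the groups. The differences between Tgfbr2 and the single markers were not tested.

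**Figure D3:**
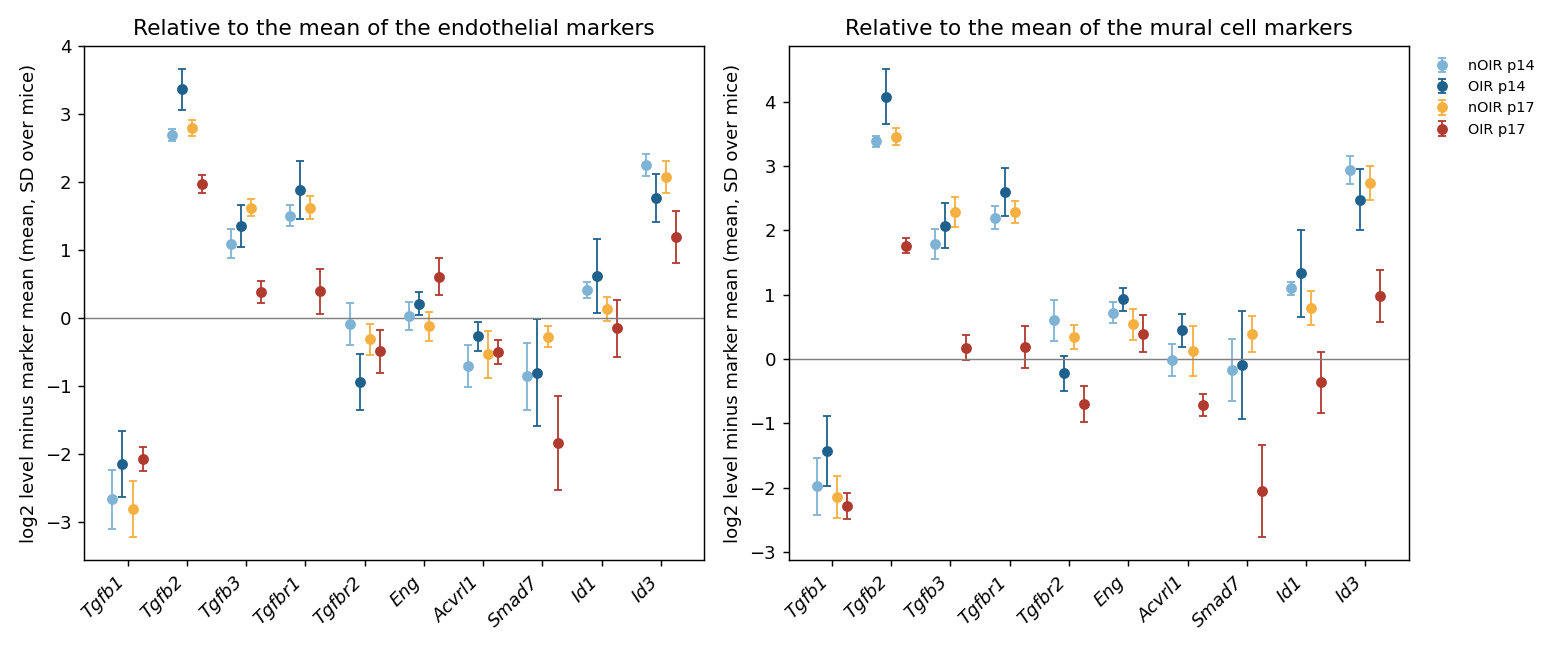
Log2 level of each gene minus the mean log2 level of 12 endothelial (left) or 8 mural cell markers (right), as mean and SD over the mice of each group. OIR p17 minus nOIR p17 is 0.73 for Tgfb1 and for Eng on the left and -0.14 for each on the right.

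Likeness over mice was described by Pearson's r of log2 levels over the 26 mice, which share the group differences, so that r was also computed after each group's mean was subtracted. Eng was most like Cnn2, a calponin (r = 0.97, and 0.70 after subtraction), Trp53i11 (0.95 and 0.59) and Myl9, a myosin light chain of smooth muscle (0.95 and 0.60). Tgfb1 was most like Vwa1 (0.94 and 0.66), Tgfbr2 most like the pericyte channel subunit Abcc9 (0.89 and 0.56), and Acvrl1 most like the laminin Lama4 (0.93 and 0.57). Id1 was most like the mitochondrial subunit Cox4i2 (0.85 and 0.74) and Id3 most like the phosphatase Dusp23 (0.91 and 0.85). Tgfb2 was most like Plekhb1 (0.91 and 0.56), Tgfb3 most like F630040K05Rik (0.69 and 0.35) and Tgfbr1 most like Nbr1 (0.84 and 0.83). Among the members, Id1 and Id3 went together within groups (0.79 after subtraction), and Tgfbr2 and Id1 went in opposite directions (-0.60 after subtraction).

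A wider list of 58 genes of the pathway was then counted by role. At p14, 8 were called higher and 1 lower, where 3.18% and 2.91% of all genes were. At p17, 14 were called higher and 2 lower, where 7.39% and 5.12% of all genes were. The median log2 fold change of the 58 was 0.11 at p14 and -0.04 at p17. Of the 8 target genes, 5 were called higher at each age. The other 3 were not called, with log2 fold changes at p14 and p17 of -0.45 and -0.36 for Id2, 0.05 and -0.84 for Id4, and 0.06 and 0.15 for Hey1. Of the 12 genes of latency and activation, 2 were called higher and 1 lower at p14, and 5 higher at p17.

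Of the other target genes, Ccn2, a matricellular protein, rose from a mean of 490 ± 49.6 to 827 ± 128 normalized reads at p14 (SD, n = 6 and 6; log2 fold change 0.75 ± 0.13, adjusted p = 4.73e-04). At p17 it rose from 460 ± 79.4 to 1582 ± 315 (n = 6 and 8; 1.77 ± 0.13, adjusted p = 1.49e-11). Tgfbi, a matrix protein named for its induction by TGF-beta, was higher by 1.88 ± 0.35 at p14 (adjusted p = 6.42e-04) and by 3.30 ± 0.32 at p17 (adjusted p = 8.59e-09). Fn1, fibronectin, was higher by 1.12 ± 0.23 at p14 (adjusted p = 0.00208) and by 2.00 ± 0.22 at p17 (adjusted p = 4.60e-08). Of these 3 genes, only Ccn2 passed the test of the difference between the ages (1.03 ± 0.18, adjusted p = 0.00129).

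Among genes that hold or release latent TGF-beta, the integrin subunit Itgb8, which activates the ligand, was higher in all OIR p14 mice, between 925.5 and 1683 normalized reads against 447.1 to 801.2 (1.02 ± 0.18, adjusted p = 3.82e-04), and was also higher at p17 (0.67 ± 0.17, adjusted p = 0.00563). Emilin1, an elastic fibre protein that limits processing of the TGF-beta precursor, was higher at p14 (0.73 ± 0.17, adjusted p = 0.00568) and at p17 (1.60 ± 0.16, adjusted p = 8.03e-09). Ltbp4, which binds latent TGF-beta in the matrix, was lower at p14 (-1.04 ± 0.29, adjusted p = 0.0242), but this call was lost in 6 of 23 alternatives, with adjusted p between 0.00703 and 0.105. Of those, 3 left out 1 mouse each (nOIR p14 S1, nOIR p14 S7 or OIR p14 S3). At p17, Lrrc32 (GARP), which anchors latent TGF-beta at the cell surface, ranged from 116.1 to 543.0 in OIR mice and from 43.6 to 84.9 in controls (2.38 ± 0.27, adjusted p = 1.31e-07). Thbs1, thrombospondin-1, which can release the active ligand, was higher by 1.69 ± 0.24 (adjusted p = 6.33e-06).

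Of 10 BMP and activin ligands, Gdf11 (-0.60 ± 0.15, adjusted p = 0.00526) and Bmp7 (-0.63 ± 0.19, adjusted p = 0.0229) were lower at p17, and the call of Bmp7 was lost without nOIR p17 mouse S3 or S5 (highest adjusted p 0.0666). Of 9 receptors, Bmpr1b was higher at p14 (0.97 ± 0.19, adjusted p = 0.00148) and at p17 (0.73 ± 0.18, adjusted p = 0.00523). Of 7 Smads, Smad1, which acts below Acvrl1, was higher at p17 (0.46 ± 0.07, adjusted p = 2.01e-05), with all OIR mice above all controls. Of 12 inhibitors and modulators, Lrg1, a secreted glycoprotein that binds endoglin, was higher at p17 at low levels (a mean of 28.3 ± 22.4 against 3.17 ± 5.77, adjusted p = 0.00445), and so was the decoy receptor Bambi (0.48 ± 0.13, adjusted p = 0.00800). The ligand of Acvrl1, Gdf2, was measured at 11.7 to 15.6 normalized reads on average in the 4 groups and passed no test.

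**Figure D4:**
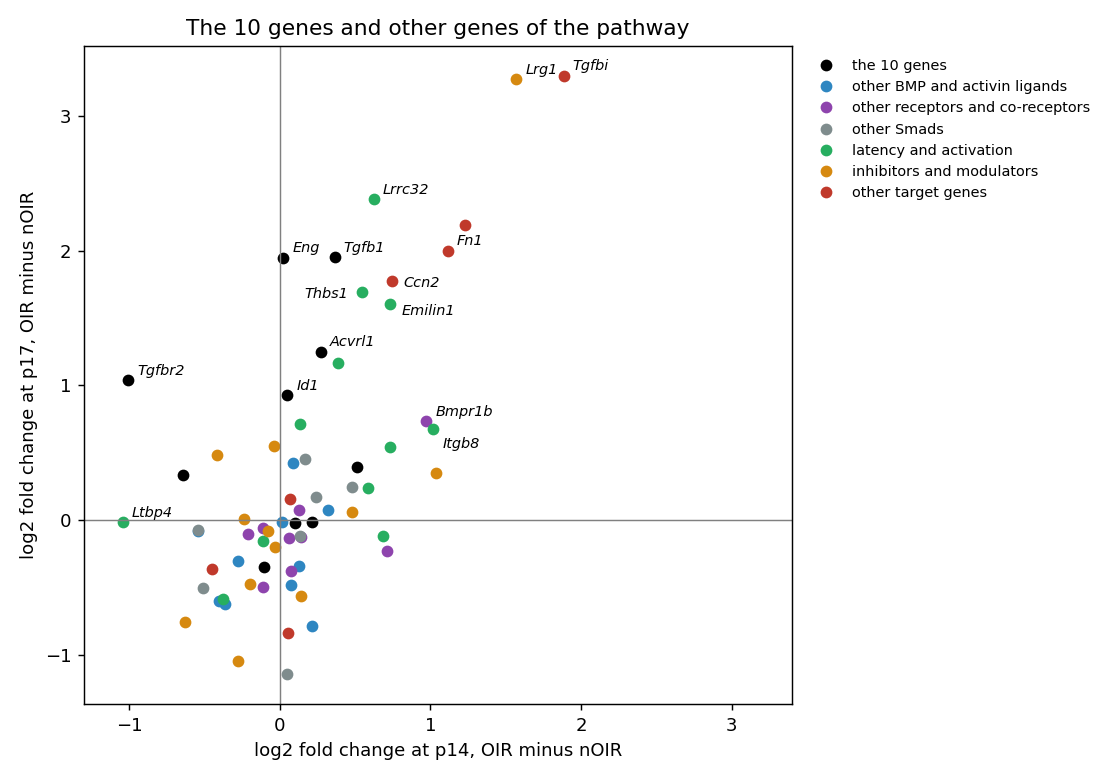
Log2 fold change of OIR against nOIR at p14 (x axis) and p17 (y axis) for the 10 genes (black) and other genes of the pathway, coloured by role. The target gene Tgfbi (1.88 and 3.30) lies high at each age and Id2 (-0.45 and -0.36) below 0 at each, whereas Eng (0.02 and 1.95) and Tgfb1 (0.36 and 1.95) lie high at p17 and Tgfbr2 (-1.01 and 1.04) lies on opposite sides of 0.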

How the data were processed

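Total RNA of mouse retinas was reverse transcribed and amplified (SMARTer, Nextera XT), a protocol that does not mark the strand. The authors aligned reads with STAR 2.7.8a, counted them on genes with featureCounts 2.0.1 and deposited normalized reads as a signal, that is, counts divided by a DESeq2 size factor for each mouse. The deposited table also holds the authors' group means, fold changes and p-values, which were not used. Every value was a whole multiple of a step per mouse (100% within 0.01), so whole reads were recovered. The smallest chi-square per degree of freedom between 2 mice of a group was 9.39, so no library was a copy of another in its group. Mice of different groups were not compared in this way. PCR reads without molecular identifiers are not independent molecules.

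Limma 3.58.1 in R 4.3.3 (lmFit, eBayes with trend) was fitted to log2 of normalized reads plus 1 over all 4 groups, for genes averaging 1 or more normalized reads (27137 of 40129), with Benjamini-Hochberg adjustment over these genes and a threshold of 0.05. It was tested on simulated data. Alternatives were a replicate block, a minimum mean of 10 or no minimum, a pseudocount of 0.1, inclusion of S4, only the groups compared, quantile and same-total scaling, edgeR 4.0.16 and DESeq2 1.42.0 on recovered reads, and leaving out each mouse. Log2 Cryaa as a covariate was added after the data were seen. Figures and summaries used Python 3.11.15. Genes named from the wider list are, for each role, the called genes with the 3 smallest adjusted p at each age, and those most like a member are the 3 with the highest r among genes averaging 50 or more normalized reads. Gdf2, Id2, Id4, Hey1 and the single mural markers were added to the text after their values were seen, and 1 gene that the rule names is not reported here. The members and all gene lists were chosen with earlier results of these data known. Which mice were littermates is not given in the sources used here, so litter was not modelled, mice were taken as independent, and a difference between litters cannot be told apart from the groups.

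Exons of other genes on the opposite strand overlap 1.51% of the exon bases of Eng (Fpgs), 2.14% of Tgfb2 (Gm29491), 2.98% of Acvrl1 (Gm16031), and 4.82% (Gm37804) and 7.6% (Gm48008) of Tgfb3 in the GRCm38 annotation, and reads there cannot be told apart. The authors' build is newer than this one, and no coordinates were in their table.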

Additional observations from a re-analysis of the deposited data

Results flagged for a closer look

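In 4 of 40 combinations of a member and a group, 1 mouse stood apart from the rest of its group, where chance gives about 1 in 20. Tgfb2 had 4607.53 normalized reads in OIR p14 mouse S5, against 3583 to 3901 in the others. Tgfb3 had 1167.53 in nOIR p14 mouse S5, against 800.9 to 935.8. Eng had 462.922 in nOIR p17 mouse S5, against 302.8 to 344.7, and Acvrl1 had 376.471 in nOIR p14 mouse S1, against 218.1 to 277.0. Where OIR was compared with nOIR mice at p14 or at p17, no call of these 4 genes changed when any single mouse was left out.

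For 6 members the OIR effect at p17 was called higher than that at p14 by the test of the difference itself. Of all genes tested, 1.43% were called higher and 0.147% lower. The call of Id1 was lost in 21 of 36 alternatives and that of Acvrl1 in 1 of 36. On the log2 scale, the difference was 1.58622 for Tgfb1, 2.04612 for Tgfbr2, 1.9258 for Eng, 0.975711 for Acvrl1, 0.87746 for Id1 and 0.978828 for Id3. Tgfbr2 and Id3 were lower in OIR mice at p14 and not at p17.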

How the results depend on the processing

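Over 50 results of members and 1320 values under alternatives, 1266 kept their direction and their side of the threshold and none reversed with a call. For Tgfb1, Tgfbr2 and Eng, every call held in every alternative that was run. Under the replicate block, Acvrl1 lost its difference between the ages (0.96, adjusted p = 0.0627), as did Id1 (0.74, adjusted p = 0.136), which left 4 of 6 members with such a call. By the median, mice of the same number did not deviate together (r = 0.003 over 34 pairs, 4 of them over 0.1). Mice of other numbers had a median r of -0.001 over 218 pairs, 7 of them over 0.1. Whether some of the numbers pair mice cannot be told from these values. Id1 also lost this difference with all genes above 0, quantile scaling and S4 included (adjusted p between 0.0611 and 0.0679). Tgfb2 was called lower in OIR p17 than in OIR p14, which made 1 member called lower instead of 0, with DESeq2, with a mean of at least 10, with the same total in each mouse, and without OIR p17 mouse S3 or S7 (range 0 to 1). With only the groups compared, 1 member, Id1, was called lower in nOIR p17 than in nOIR p14. Of the 58 other genes, the 1 called lower at p14 became 3 with DESeq2, with a mean of at least 10 and with log2 Cryaa as a covariate, and 0 with edgeR, only the groups compared and the replicate block (0 to 2 leaving out a mouse), and the 2 called lower at p17 became 1 to 3 leaving out a mouse. The cause was not tested. With the same total in each mouse, the share of higher calls over all genes went from 52.2% to 62.6% at p14 and from 59.1% to 71.4% at p17. Lrg1 had 0 reads in some mice.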
